A study of Mus musculus with 22 samples.

Results

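The genes described here encode the proteins that read N6-methyladenosine (m6A) on RNA and those that remove it, in mouse fetal liver with and without the m6A-writing enzyme Mettl3. The 10 genes were taken by name, namely the YTH-domain readers Ythdf1, Ythdf2, Ythdf3, Ythdc1 and Ythdc2, the IGF2BP readers Igf2bp1, Igf2bp2 and Igf2bp3, and the erasers Fto and Alkbh5. They are 10 of the 52459 genes counted in bulk RNA and in liver RNA, and each also has counts in single cells and an H3K4me3 window. All samples were taken at E14.5, in mid-gestation, from mice with loxP-flanked Mettl3 alleles. KO animals were Vav-Cre Mettl3fl/fl, and WT animals were Mettl3fl/fl without Vav-Cre, so both groups carried the floxed alleles. Vav-Cre acts in blood cells, and whole fetal liver also holds hepatocytes and other cells in which it does not act.

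Lin-Sca-1+c-Kit+ (LSK) cells, the sorted fraction with blood stem cells and early progenitors, gave bulk RNA-seq from 3 KO and 3 WT samples. LSK cells also gave 2 KO and 2 WT samples each of single-cell RNA-seq and of H3K4me3 CUT&RUN, which releases DNA beside an antibody-bound histone mark of active gene starts. Whole liver was read as total RNA (INPUT) from 2 KO and 2 WT livers, and as RNA pulled down from the same livers with J2, an antibody against double-stranded RNA, each liver having been divided into 2 portions.

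An m6A mark is set on RNA in the nucleus by a complex around METTL3 and METTL14, and its effect depends on the proteins that bind it. YTHDC1 binds in the nucleus and acts on splicing and export, while YTHDF1, YTHDF2 and YTHDF3 bind in the cytoplasm, where YTHDF2 is best known for bringing the CCR4-NOT deadenylase to marked RNA. YTHDC2 is an RNA helicase known from meiosis, the IGF2BP proteins stabilise bound RNA and are marks of fetal tissue, and the iron-dependent dioxygenases FTO and ALKBH5 take the methyl group off. In blood formation YTHDF2 is known as a brake on stem cell number, and IGF2BP proteins belong to the LIN28 and let-7 axis of the fetal program.

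Total counts per library were 20.1 to 40.6 M in bulk libraries, 3.10 to 5.25 M in liver libraries, 7.26 to 11.6 M over the kept cells of a single-cell library, and 11.51 to 14.45 M over the strongest H3K4me3 window of each gene. In bulk LSK cells Mettl3 stood at 4.13 to 6.31 CPM (a counts-per-million level) in KO and 33.2 to 43.0 CPM in WT. In INPUT it stood at 6.70 and 26.9 CPM in the libraries labelled KO and at 29.4 and 24.9 CPM in those labelled WT. INPUT KO 2 thus lay between the WT values, and which cells of a liver carried the deletion was not measured. In J2 RNA of the same livers it was at 46.2 and 34.6 CPM in those labelled KO and at 25.5 and 30.2 CPM in those labelled WT, which goes against the labels' direction. In the single-cell libraries it was at 64.3 and 52.2 CPM in those labelled KO and at 36.3 and 33.3 CPM in those labelled WT. The position of the deleted part is not given in the sources used here, so a count from the 3′ end of the transcript does not check those labels. Both single-cell libraries labelled KO held Xist and no Y-linked counts, and both labelled WT held the reverse, so in those cells genotype cannot be told apart from sex. Sex also went with genotype in part in the bulk libraries, where 4 Y-linked genes summed to 0, 43.1 and 36.1 CPM in KO and 155, 95.1 and 181 CPM in WT, while Xist stood at 272 to 367 CPM in KO and at 400, 196 and 0.15 CPM in WT 1 to 3. Of 15707 deposited cells 15678 were kept, and among the deposited cells 8 barcodes occurred in more than 1 library. The 4 genes that mark LSK cells (Kit, Ly6a, Cd34 and Ptprc) were detected in every LSK table, with a summed level of 1511 to 1698 CPM in bulk KO and 1604 to 1799 CPM in bulk WT. Within that sum the 2 sort markers moved in opposite directions in bulk cells, both called by edgeR. Kit fell from 540 ± 43 to 361 ± 13 CPM and Ly6a, which encodes Sca-1, rose from 6.55 ± 1.4 to 19.2 ± 6.0 CPM (mean ± SD, n = 3 each).

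The upstream sequences of the readers that changed most in bulk LSK cells, and of Igf2bp3, which lay close to 0 there, are printed to show what kind of promoter carries them. RefSeq (GRCm38.p6) has promoter entries for 7 of the 10 genes. Ythdf3, Ythdc2 and Igf2bp1 were not matched. Each stretch runs 5′ to 3′ on the gene's strand from 250 bases before the RefSeq start to the base before the most upstream start annotated in the deposited files. Capitals mark GC boxes (GGGCGG on either strand, so also CCGCCC). The positions are chr2:180920950-180921186 (minus strand) for Ythdf1, chr4:132212304-132212506 (minus) for Ythdf2, chr5:86804016-86804220 (plus) for Ythdc1 and chr6:49214958-49215204 (minus) for Igf2bp3.
Ythdf1: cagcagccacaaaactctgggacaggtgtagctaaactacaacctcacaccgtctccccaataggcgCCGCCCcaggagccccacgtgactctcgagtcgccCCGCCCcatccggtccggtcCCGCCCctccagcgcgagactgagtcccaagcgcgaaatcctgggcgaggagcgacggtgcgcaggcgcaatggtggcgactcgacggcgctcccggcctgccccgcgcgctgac
Ythdf2: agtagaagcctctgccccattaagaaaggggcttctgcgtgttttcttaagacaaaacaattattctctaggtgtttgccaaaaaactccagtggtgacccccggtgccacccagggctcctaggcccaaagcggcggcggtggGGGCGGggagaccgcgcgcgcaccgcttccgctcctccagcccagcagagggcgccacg
Ythdc1: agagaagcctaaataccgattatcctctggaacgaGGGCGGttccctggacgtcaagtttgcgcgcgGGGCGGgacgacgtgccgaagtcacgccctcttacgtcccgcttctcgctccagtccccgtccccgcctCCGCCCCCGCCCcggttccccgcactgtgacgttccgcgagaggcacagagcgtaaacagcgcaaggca
Igf2bp3: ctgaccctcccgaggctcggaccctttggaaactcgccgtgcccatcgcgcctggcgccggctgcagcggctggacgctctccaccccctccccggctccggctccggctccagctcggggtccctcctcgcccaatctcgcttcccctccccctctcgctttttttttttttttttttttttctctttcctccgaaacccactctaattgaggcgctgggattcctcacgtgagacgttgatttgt

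The Ythdf1 stretch holds 3 GC boxes, that of Ythdf2 1 and that of Ythdc1 4, and the Igf2bp3 stretch holds none. Of the other matched genes, those not called in bulk cells hold 2 (Igf2bp2) and 0 (Fto). The called Alkbh5 holds 2 in the 250 bases before its RefSeq start, and another annotated start (60536381, plus strand) lies further upstream of these. Igf2bp2 has the most CpG of the 7, at 40. The 7 genes are too few to relate boxes to bulk calls, and this was not tested. A GC box lies within the 250 bases before the start in 32.7% of 32851 RefSeq promoters. The same 250 bases hold 30 CpG dinucleotides at Ythdf1, 22 at Ythdf2, 30 at Ythdc1 and 21 at Igf2bp3, against a median of 6 over all promoters. None of the 4 holds a TATAAA on either strand, a match found in 12.4% of promoters. These matches describe the letters and are not mapped binding sites.

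In bulk LSK cells 5 of the 10 genes rose in KO and none fell, with the cytoplasmic reader Ythdf2 at 2.08-fold, Ythdf1 at 1.68-fold and the nuclear reader Ythdc1 at 1.64-fold of WT. Over all 14405 genes tested, 44.2% were called in either direction, 21.6% as higher and 22.6% as lower, at a Benjamini-Hochberg adjusted p under 0.05 in edgeR's quasi-likelihood test. The median log2 fold change was 0.28 over the 10 genes and -0.02 over all genes tested. With 3 samples a group an exact permutation test of a single gene cannot go below 0.10, so calls rest on the fit across all genes. With the Y-linked level of each library as a term, chosen after the data were seen, 2 of the 10 were called, Ythdf2 (log2 fold change 1.13, SE 0.18, edgeR adjusted p 0.0141) and Ythdf1 (0.76, SE 0.17, edgeR adjusted p 0.0376), beside 9.49% of all genes. In that fit the calls of Ythdf3 (0.38, edgeR adjusted p 0.165), Ythdc1 (0.71, edgeR adjusted p 0.0820) and Alkbh5 (0.15, edgeR adjusted p 0.687) ended.

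Ythdf2 had 328, 346 and 342 CPM in KO samples 1 to 3 and 150, 165 and 174 CPM in WT samples 1 to 3. Every KO sample was well above every WT sample. The log2 fold change was 1.05 (SE 0.074), or 2.08-fold, with an adjusted p of 2.77e-05 in edgeR's quasi-likelihood test. Ythdf1, known for promoting translation of marked RNA, had 273, 256 and 255 CPM in KO and 147, 155 and 166 CPM in WT. The groups were again apart, with a log2 fold change of 0.75 (SE 0.070) and an adjusted p of 7.99e-05 in the same edgeR test.

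Ythdf3, the reader often placed beside the other two in cytoplasmic granules, had 137, 140 and 142 CPM in KO and 116, 108 and 106 CPM in WT. Its 3 KO samples lay above the highest WT sample by a smaller margin, and its log2 fold change was 0.34 (SE 0.064, edgeR adjusted p 0.00253). The ratio of 2 readers within one library does not depend on how libraries are scaled. Log2 of Ythdf2 over Ythdf3 averaged 1.28 ± 0.025 (SD, n = 3) in KO and 0.57 ± 0.18 (SD, n = 3) in WT. The ratio was higher in each KO library than in any WT library, and its 2-sided exact permutation p was 0.1, the smallest this design allows (0.1 after adjustment over 5 such ratios). Log2 of Ythdf2 over Ythdf1 averaged 0.37 ± 0.095 in KO and 0.065 ± 0.035 in WT (SD, n = 3 each), again without overlap, at the same exact permutation p of 0.1. In single cells the last ratio overlapped between groups (1.54 ± 0.34 in KO and 1.48 ± 0.24 in WT, SD, n = 2 each, exact permutation p 1). In INPUT it did not, at 0.40 ± 0.62 in KO and -0.84 ± 0.17 in WT (SD, n = 2 each, exact permutation p 0.333, the smallest that 2 against 2 allows). Counts are not divided by transcript length here, so the ratios are read between groups and not as which gene is more abundant.

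Ythdc1, the nuclear reader, had 194, 180 and 194 CPM in KO and 130, 110 and 106 CPM in WT. All KO samples were above all WT samples, with WT 1 nearest to them. Its log2 fold change was 0.72 (SE 0.087, edgeR adjusted p 0.000264). Ythdc2, the helicase, had 39.8, 41.8 and 40.0 CPM in KO and 37.9, 35.5 and 31.8 CPM in WT. The KO samples were above the WT samples by little, and the log2 fold change of 0.21 (SE 0.086) did not pass the test (edgeR adjusted p 0.0765).

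None of the 3 IGF2BP readers passed the test in bulk LSK cells. Igf2bp1 had 311, 271 and 276 CPM in KO and 284, 231 and 208 CPM in WT, so that WT 1 lay among the KO samples (log2 fold change 0.25, SE 0.11, edgeR adjusted p 0.104). Igf2bp2 had 132, 124 and 123 CPM in KO and 139, 140 and 166 CPM in WT (log2 fold change -0.23, SE 0.084, edgeR adjusted p 0.0527). Its KO samples were all slightly below its WT samples. Igf2bp3 had 270, 262 and 262 CPM in KO and 249, 254 and 258 CPM in WT, with a log2 fold change of 0.06 (SE 0.060, edgeR adjusted p 0.436). These levels were close to each other in all 6 samples.

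Of the erasers Alkbh5 was called and Fto was not. Alkbh5 had 233, 190 and 196 CPM in KO and 171, 164 and 163 CPM in WT, with KO 1 the highest by a margin and no overlap. It rose by 0.32 (log2, SE 0.085, edgeR adjusted p 0.0145). Scaling by library size alone ended that call (log2 fold change 0.23, edgeR adjusted p 0.0657). Fto had 132, 117 and 121 CPM in KO and 129, 146 and 154 CPM in WT, and the groups overlapped at KO 1 and WT 1 (log2 fold change -0.22, SE 0.084, edgeR adjusted p 0.0621). Log2 of Alkbh5 over Fto within a library averaged 0.74 ± 0.070 in KO and 0.22 ± 0.17 in WT (SD, n = 3 each), without overlap and with an exact permutation p of 0.1. The same ratio overlapped between groups in INPUT and in single cells (exact permutation p 0.667 in each), so a difference between the erasers is not shown.

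**Figure D1:**
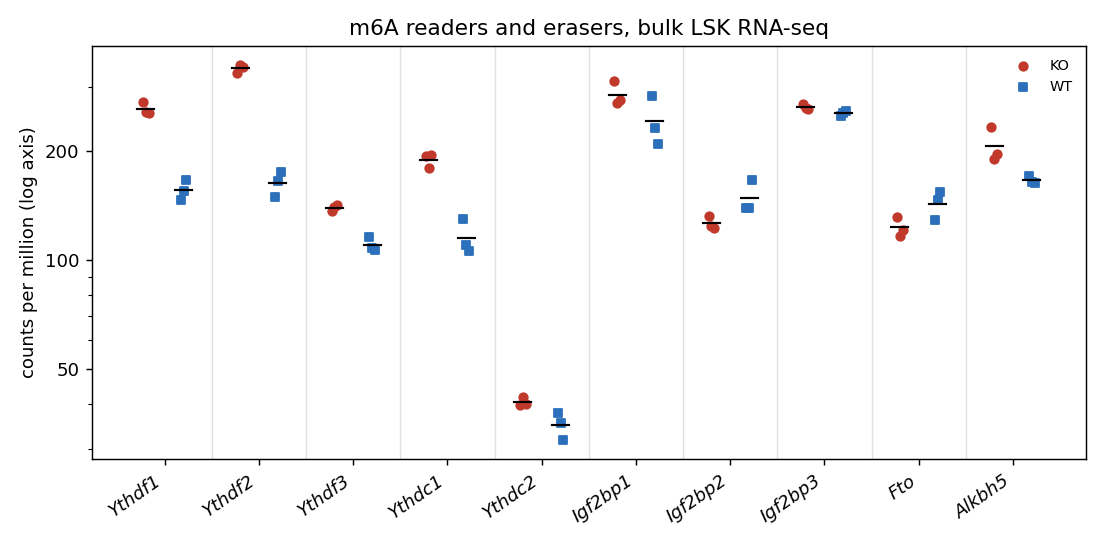
CPM (log axis) of the 10 genes in each bulk LSK library, with KO as circles, WT as squares and a bar at each group's mean (n = 3). Ythdf2 stands at 328 to 346 CPM in KO and 150 to 174 CPM in WT, while Igf2bp3 stands at 262 to 270 CPM and 249 to 258 CPM.

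The bulk calls moved with 1 library and with scaling. Leaving out WT 1 raised the number called from 5 to 9 of 10, with Igf2bp1 and Ythdc2 added as higher and Igf2bp2 and Fto as lower, beside 44.6% of all genes. Scaling by library size alone gave 4 higher and 2 lower of 10 (Igf2bp2 and Fto), and over all genes 2463 higher and 4143 lower in place of 3114 and 3253. Markers of other cell states moved with genotype in the same libraries. Of 6 granulocyte markers 4 were higher in KO (summed level 3739 to 3803 CPM against 1527 to 1673 CPM in WT). All 8 stem cell markers (355 to 413 CPM against 560 to 779 CPM) and all 8 lymphoid markers tested (summed over 9, 94.6 to 97.8 CPM against 257 to 358 CPM) were lower, and so were 5 of 7 erythroid markers. Their part in the readers' differences was not tested in bulk RNA, where fewer cells of a type and less RNA per cell cannot be told apart.

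Among the other genes of the m6A pathway, 7 of 13 writer genes were higher and 1 lower in bulk KO cells. Wtap, which anchors the writer complex, rose most (log2 fold change 1.36, SE 0.067, edgeR adjusted p 8.75e-06), and the deleted Mettl3 was the one that fell (-2.91, SE 0.17, edgeR adjusted p 1.57e-05). Of 7 other proteins reported to bind m6A RNA, 1 was higher, the translation factor subunit Eif3a (0.28, SE 0.075), and 1 lower, the splicing factor Rbmx (-0.48, SE 0.074). Of 9 reader partners tested, the nuclear exosome adaptor Zcchc8 was higher (0.24, SE 0.076) and Rida, which links YTHDF2 to RNase P/MRP cleavage, lower (-0.43, SE 0.087). In the LIN28 and let-7 list 2 of 8 were higher and 2 lower, with Myc furthest up (0.86, SE 0.082) and the growth factor Igf2 furthest down (-1.76, SE 0.090), both called in edgeR's test. The median log2 fold change was 0.32 over the writers, 0.13 over the other binders, 0.03 over the partners and -0.06 over the LIN28 and let-7 list, beside -0.02 over all genes.

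Single-cell counts of LSK cells, summed over the kept cells of each library, gave no call for the 10 genes. edgeR's quasi-likelihood test called 0 of 10, and 0.00748% of the 13374 genes tested. In that test 5 of 10 had an unadjusted p under 0.05, beside 1932 of all genes tested. DESeq2 called 1 of 10, Ythdf2, beside 2.32% of all genes. Ythdf2 had 257 and 276 CPM in the libraries labelled KO and 144 and 179 CPM in those labelled WT. Both KO libraries were above both WT libraries, with a log2 fold change of 0.72 (SE 0.16, edgeR adjusted p 0.251 and DESeq2 adjusted p 0.00803). Ythdf1 had 104 and 80.0 CPM in KO and 58.1 and 57.1 CPM in WT (log2 fold change 0.68, SE 0.17, edgeR adjusted p 0.275). Ythdc1 had 171 and 166 CPM in KO and 130 and 114 CPM in WT (0.47, SE 0.14, edgeR adjusted p 0.275). In each of these 2 genes as well, neither library labelled KO overlapped the WT libraries.

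Of the remaining genes, Ythdc2 was at 10.6 and 9.76 CPM in KO and 6.27 and 6.84 CPM in WT (log2 fold change 0.63, SE 0.21). It was among the less counted of the 10, with 43 to 118 counts a library. Igf2bp1 (log2 fold change 0.42, SE 0.16), Alkbh5 (0.45, SE 0.24) and Ythdf3 (0.24, SE 0.18) had values above 0, and Igf2bp2 (0.14, SE 0.29), Igf2bp3 (0.10, SE 0.16) and Fto (-0.09, SE 0.22) lay within 1 SE of 0. The median log2 fold change was 0.44 over the 10 genes and 0.00 over all genes tested, in libraries whose sex goes with genotype. No gene of the writer, binder, partner or LIN28 lists was called in these sums.

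**Figure D2:**
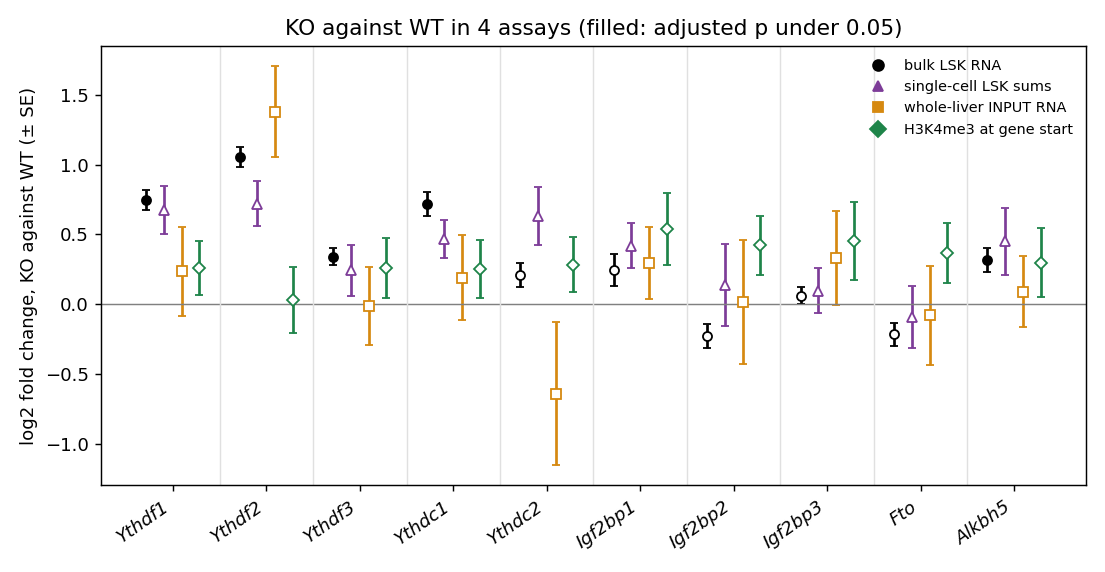
Log2 fold change, KO against WT, with its standard error for the 10 genes in bulk LSK RNA, single-cell LSK sums, whole-liver INPUT and H3K4me3 at gene starts, with filled points for an adjusted p under 0.05. Filled points occur in bulk RNA for Ythdf1, Ythdf2, Ythdf3, Ythdc1 and Alkbh5, and Ythdf2 has 1.05 in bulk RNA, 0.72 in single cells, 1.38 in INPUT and 0.03 in H3K4me3.

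Cells were also grouped by markers, a cell joining a class when at least 2 of its markers were detected and more than of any other class. The stem class held 713 cells, the granulocyte class 3667 and the monocyte class 1039, and 8714 cells were in no class. These were the classes with at least 50 cells in each library. Class cells were deeper, with a median of 2104 to 2593 counts against 1384.5 in unassigned cells, and 465 of the stem, 2367 of the granulocyte and 482 of the monocyte cells had exactly 2 markers. A class set this way is a range of marker detection and not a cell type.

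Against unassigned cells of the same library, edgeR's quasi-likelihood test called 0 of 10 genes in each class, where 11.5%, 6.4% and 11.4% of all genes were called in the stem, granulocyte and monocyte class. An unadjusted p under 0.05 was reached by 3, 2 and 1 of the 10. Over all genes it was reached by 2250 of 9808, 1947 of 10870 and 2102 of 9332. The nearest to a call were 2 IGF2BP readers. Igf2bp2 had 23.5 and 58.2 CPM in stem-class cells of KO 1 and KO 2 and 14.8 and 44.4 CPM in those of WT 1 and WT 2, from 4, 79, 5 and 29 counts. Unassigned cells of these libraries had 23.6, 31.1, 19.9 and 28.3 CPM, so the stem class was higher in KO 2 and WT 2 only. The log2 fold change of Igf2bp2 against unassigned cells was 0.49 (SE 0.18, edgeR adjusted p 0.0817). The 2 libraries with few Igf2bp2 counts were the low ones. Igf2bp3 had 157, 155, 82.3 and 118 CPM in monocyte-class cells of the same 4 libraries, and 92.5, 103, 90.3 and 111 CPM in their unassigned cells. The monocyte class was thus well above unassigned cells in both KO libraries, little above in WT 2 and below in WT 1. The log2 fold change of Igf2bp3 was 0.33 (SE 0.12, edgeR adjusted p 0.0634) in that class and 0.19 (SE 0.066, edgeR adjusted p 0.0964) in the granulocyte class.

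Within the monocyte class 3 readers were higher in KO: Ythdf1, Ythdf2 and Ythdc1. The other 6 genes tested were not called and Ythdc2 had too few counts to be tested. Of all 7478 genes tested there 3.13% were called, 1.78% as higher. Ythdf1 had 149 and 116 CPM in the libraries labelled KO and 46.3 and 44.0 CPM in those labelled WT, from 43 to 91 counts (log2 fold change 1.36, SE 0.26, edgeR adjusted p 0.0193). Ythdf2 had 262 and 343 CPM in KO and 106 and 158 CPM in WT (1.04, SE 0.21, edgeR adjusted p 0.0274). Ythdc1 had 204 and 232 CPM in KO and 102 and 84.9 CPM in WT (1.04, SE 0.23, edgeR adjusted p 0.0332). For each of the 3, both KO libraries, which are female, were above both WT libraries, which are male. Markers moved in the same class. The 6 monocyte markers had a median log2 fold change of -0.71 with 1 called lower, Ly86 (-1.09, SE 0.23), and summed to 976 to 1465 CPM in KO and 1628 to 1904 CPM in WT. The 6 granulocyte markers summed to 1298 to 1320 CPM in KO and 577 to 655 CPM in WT, and of the 3 tested Mpo was called higher (0.94, SE 0.21). Ly6a (2.32, SE 0.39) and Myc (1.28, SE 0.27) were also called higher, and the part of these shifts in the readers' values was not tested. All 3 calls were lost without KO 1 or without WT 1, when the adjusted p was 0.0565 to 0.160 in edgeR's test. Without KO 2 only Ythdf1 was called, and without WT 2 only Ythdf2.

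In the granulocyte class the same 3 genes were not called (0 of 10 in edgeR's quasi-likelihood test, with 0.452% of all genes called). An unadjusted p under 0.05 was reached by 4 of 10 genes and by 1400 of all 9965. There Ythdf1 had 91.6 and 83.7 CPM in KO and 51.0 and 68.5 CPM in WT, with a log2 fold change of 0.50 (SE 0.21). Ythdf2 had 243 and 291 CPM in KO and 142 and 204 CPM in WT, with a log2 fold change of 0.56 (SE 0.20). Ythdc1 had 165 and 172 CPM in KO and 106 and 110 CPM in WT, with a log2 fold change of 0.57 (SE 0.18, edgeR adjusted p 0.197).

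In the stem class edgeR called 0 of the 9 genes tested and 0.208% of all genes. An unadjusted p under 0.05 was reached by 0 of the 9 and by 503 of all 6242 genes. Ythdf1 had 64.7 and 72.9 CPM in KO and 56.2 and 53.5 CPM in WT (log2 fold change 0.29, SE 0.33). Ythdf2 had 188 and 306 CPM in KO and 198 and 211 CPM in WT (0.29, SE 0.23), and Ythdc1 had 194 and 175 CPM in KO and 201 and 159 CPM in WT (-0.06, SE 0.23). The groups overlapped for Ythdf2 and Ythdc1 in this class, whose KO 1 sums held 11 counts of Ythdf1, 32 of Ythdf2 and 33 of Ythdc1. Whether the KO difference itself differs between classes was not tested.

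**Figure D3:**
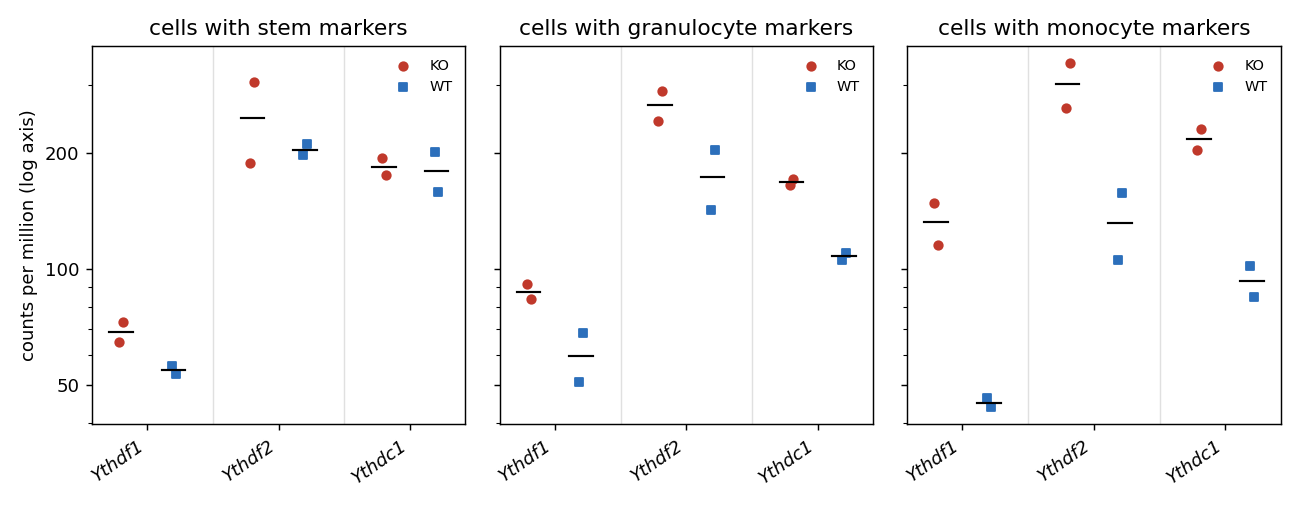
CPM (log axis) of Ythdf1, Ythdf2 and Ythdc1 summed over cells with stem, granulocyte or monocyte markers in each single-cell library, with KO as circles, WT as squares and a bar at each group's mean (n = 2). In the monocyte class Ythdf1 lies at 149 and 116 CPM in KO and at 46.3 and 44.0 CPM in WT, while in the stem class Ythdf2 and Ythdc1 overlap between groups.

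H3K4me3 at the starts of these genes was high in both genotypes and gave no call in the fit over all genes. Each gene's strongest window, reaching about 3 kb to either side of an annotated start in GRCm38.p5, had 34.2 CPM or more in each library. edgeR's quasi-likelihood test called 0 of 10 (7.88% of 51039 genes), with 2 of 10 and 14159 of all genes at an unadjusted p under 0.05. DESeq2 called 0 of 10 and 1.57% of all genes. The median log2 fold change was 0.29 over the 10 windows and -0.15 over all windows. The 4 pathway lists were also above 0, at 0.35 (writers), 0.26 (other binders), 0.28 (partners) and 0.47 (LIN28 and let-7). Values above 0 were therefore not particular to these 10 genes. In a fit on marked windows alone (mean log2 CPM of at least 4), the median over those windows was 0.0056. That fit is scaled on the marked windows themselves, which brings their median near 0. It therefore cannot show whether marked windows share the shift.

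At Ythdf2, whose RNA rose most in bulk cells, the strongest window had 84.5 and 74.9 CPM in KO and 84.4 and 71.6 CPM in WT (log2 fold change 0.03, SE 0.23, edgeR adjusted p 0.929). The groups overlapped fully. The window is set at a start at 132210809 on the minus strand of chromosome 4, and windows at the other 3 annotated starts of the gene, among them the upstream start beside the printed sequence (132212303), which overlap it, held similar counts (68.2 to 84.8 CPM over the 4 libraries). Ythdf1 (chromosome 2, minus strand, start 180920387) had 51.4 and 42.1 CPM in KO and 43.3 and 34.8 CPM in WT (0.26, SE 0.19). Ythdf3 (chromosome 3, plus strand, start 16183236) had 66.7 and 60.4 CPM in KO and 59.4 and 46.6 CPM in WT (0.26, SE 0.22). Ythdf1 overlapped between groups, and Ythdf3 did not by a narrow margin.

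Ythdc1 had 5 of its 9 windows at or above 16 CPM, all near the 5′ end of the gene on chromosome 5, and its strongest (start 86806411) had 60.3 and 51.2 CPM in KO and 50.4 and 43.2 CPM in WT (0.25, SE 0.21). Windows at its 4 internal starts held 1.23 to 3.45 CPM, so the mark lay at the 5′ group of starts. Ythdc2 had 1 such window of 4, with a log2 fold change of 0.28 (SE 0.20).

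The IGF2BP starts had the 3 log2 fold changes furthest from 0. Igf2bp1 (chromosome 11, minus strand, start 96005940) had 136 and 124 CPM in KO and 103 and 76.2 CPM in WT (0.54, SE 0.26, edgeR adjusted p 0.156). Both KO samples were above both WT samples. Starts of the genes Gm29202 and Gm37179 lie within 3000 bp of it, inside the window. Igf2bp2 (chromosome 16, minus strand, start 22161450) had 70.8 and 53.9 CPM in KO and 55.3 and 37.6 CPM in WT (0.42, SE 0.21, edgeR adjusted p 0.170). Igf2bp3 (chromosome 6, minus strand, start 49214957) had 183 and 153 CPM in KO and 139 and 106 CPM in WT (0.46, SE 0.28, edgeR adjusted p 0.251). WT 2 was the lowest library at all 10 genes, and it also had the smallest total, at 11.51 M. How often it was lowest over all windows was not counted, so this is not read as a trait of the 10 genes.

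At the erasers, Fto (chromosome 8, plus strand, start 91313535), whose window also covers a start of Rpgrip1l, had 68.7 and 62.9 CPM in KO and 55.9 and 46.1 CPM in WT (0.37, SE 0.22). Alkbh5 (chromosome 11, plus strand, start 60537978) had 113 and 98.2 CPM in KO and 99.2 and 72.9 CPM in WT (0.30, SE 0.25). A fit on marked windows alone (mean log2 CPM of at least 4) moved 6 of the 10 values below 0 and called Ythdf2 lower (-0.28, edgeR adjusted p 0.0405). In the pathway lists 1 gene was called, Lin28a, as higher (0.70, SE 0.16, edgeR adjusted p 0.00164).

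**Figure D4:**
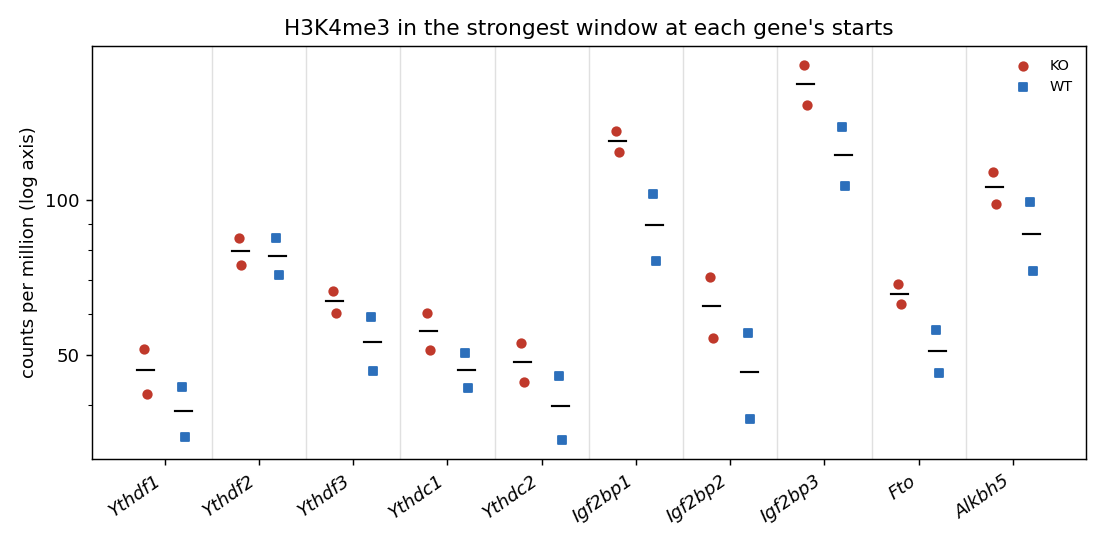
H3K4me3 CPM (log axis) in the strongest start window of each gene for each CUT&RUN library, with KO as circles, WT as squares and a bar at each group's mean (n = 2). Ythdf2 overlaps between groups (84.5 and 74.9 against 84.4 and 71.6 CPM), and Igf2bp1 stands at 136 and 124 CPM in KO and 103 and 76.2 CPM in WT.

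In INPUT RNA of whole fetal liver Ythdf2 was the gene furthest from 0, and no gene was called. edgeR's quasi-likelihood test over the 8 liver libraries called 0 of 10 (1.18% of 14657 genes). Ythdf2 alone of the 10 had an unadjusted p under 0.05 there, beside 2506 of all genes. It was also the 1 gene of the 10 that DESeq2 called, beside 5.64% of all genes. Ythdf2 had 103 and 98.8 CPM in the libraries labelled KO and 31.3 and 46.2 CPM in those labelled WT. Both KO livers were above both WT livers, with a log2 fold change of 1.38 (SE 0.33, edgeR adjusted p 0.0714 and DESeq2 adjusted p 0.00750). Ythdf2 passed edgeR's test with library size alone (1.66, adjusted p 0.0242), where 2.24% of all genes were called. It also passed with no low-count filter (1.36, adjusted p 0.00208, 3.17% of all genes) and with sex as a term (1.41, adjusted p 0.0404, 1.59%). It did not pass with other size factors (RLE), with the INPUT libraries alone or with the replicate block. Without WT 2, which leaves 1 WT library, its log2 fold change was 1.69.

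The other 9 genes had adjusted p-values of 0.553 or more in edgeR's test, and their values lay between -0.64 (SE 0.51) for Ythdc2 and 0.33 (SE 0.34) for Igf2bp3. Ythdc2 had 31.3 and 9.17 CPM in KO and 33.2 and 30.2 CPM in WT, so KO 2 alone was low. Ythdf1 had 106 and 55.4 CPM in KO and 61.0 and 76.0 CPM in WT, a spread between KO livers that covers the WT values. Cell type markers differed between the same livers. The erythroid list summed to 2181 to 2369 CPM in KO and 4461 to 5514 CPM in WT, the hepatocyte list to 19590 to 20547 CPM and 9966 to 13237 CPM, and the macrophage list to 468 to 528 CPM and 170 to 185 CPM. Granulocyte markers summed to 412 to 478 CPM in KO and 169 to 210 CPM in WT, and late neutrophil markers to 346 to 389 CPM and 113 to 180 CPM. The stem and megakaryocyte lists were also higher in KO, while the monocyte, lymphoid, and endothelial and stromal lists overlapped. The 4 LSK markers summed to 111 to 121 CPM in KO and 55.2 to 77.2 CPM in WT. The part of these shifts in the Ythdf2 values was not tested. No gene of the 4 pathway lists was called in INPUT.

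J2-bound RNA held more of 5 of the 10 transcripts than INPUT did in WT liver and of 4 in KO liver, and less of none. In WT 23.9% of all genes were called, 13.2% as higher and 10.7% as lower, and in KO 30.4%, 15.3% as higher and 15.1% as lower. These counts are from group means, which leave out that INPUT and J2 share a liver. With the liver as a block Ythdf2 was added in WT and no other call changed, beside 23.9% and 30.4% of all genes. The median log2 ratio of J2 over INPUT was 0.95 over the 10 genes and 0.10 over all genes in WT, and 0.68 and 0.04 in KO. With library size as the only scaling, the median over all genes became 0.52 in WT and 0.33 in KO.

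Alkbh5 had 372 and 340 CPM in J2 RNA of WT livers 1 and 2 and 73.4 and 129 CPM in their INPUT (log2 ratio 1.82, SE 0.26, edgeR adjusted p 0.000464). In KO it had 311 and 326 CPM in J2 RNA and 96.0 and 119 CPM in INPUT (1.57, SE 0.26, edgeR adjusted p 0.000774). The J2 libraries were far above INPUT in both genotypes. The other eraser, Fto, was not called in either genotype, with 78.1 and 81.8 CPM in J2 RNA and 91.2 and 74.0 CPM in INPUT of WT livers.

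Igf2bp1 had 471 and 342 CPM in J2 RNA and 126 and 113 CPM in INPUT of WT livers (log2 ratio 1.77, SE 0.26, edgeR adjusted p 0.000591). In KO livers it had 453 and 472 CPM in J2 RNA and 108 and 186 CPM in INPUT (1.66, SE 0.26, edgeR adjusted p 0.000585). Igf2bp3 had 114 and 84.9 CPM in J2 RNA and 66.0 and 31.9 CPM in INPUT of WT livers (1.02, SE 0.33, edgeR adjusted p 0.0458). J2 RNA was above INPUT for both genes in all 4 livers. For Igf2bp3 the WT call ended without INPUT WT 2 (adjusted p 0.182), without J2 WT 1 (0.220) and without J2 WT 2 (0.0715) in edgeR's test. In KO Igf2bp3 had 178 and 171 CPM in J2 RNA and 53.3 and 70.0 CPM in INPUT (2.84-fold, SE 0.33 on the log2 scale, edgeR adjusted p 0.00501). Igf2bp2 was called in neither genotype, with J2 RNA at 39.0 to 55.3 CPM and INPUT at 25.7 to 77.6 CPM over the 4 livers.

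Of the cytoplasmic readers Ythdf3 was called in both genotypes. It had 110 and 122 CPM in J2 RNA and 35.1 and 59.7 CPM in INPUT of WT livers (log2 ratio 1.29, SE 0.28, edgeR adjusted p 0.00576). In KO livers it had 193 and 182 CPM in J2 RNA and 49.1 and 45.0 CPM in INPUT (1.99, SE 0.28, edgeR adjusted p 0.000270). INPUT of Ythdf3 overlapped between genotypes, while both KO livers had more of it in J2 RNA than either WT liver. Ythdf2 had 51.3 and 97.0 CPM in J2 RNA and 31.3 and 46.2 CPM in INPUT of WT livers (0.94, SE 0.33, edgeR adjusted p 0.0584). With the liver as a block, since INPUT and J2 of a number share one liver, that ratio passed (0.90, edgeR adjusted p 0.0258). In KO livers Ythdf2 had 144 and 143 CPM in J2 RNA and 103 and 98.8 CPM in INPUT (0.51, SE 0.31, edgeR adjusted p 0.243).

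The nuclear reader Ythdc1 was called in WT and not in KO. It had 102 and 184 CPM in J2 RNA and 63.7 and 82.6 CPM in INPUT of WT livers (log2 ratio 0.97, SE 0.30, edgeR adjusted p 0.0381), with WT 2 the high one. The call ended without J2 WT 2, where the ratio was 0.50 (edgeR adjusted p 0.394), and without INPUT WT 1 (0.80, edgeR adjusted p 0.130). In KO livers Ythdc1 had 97.7 and 89.7 CPM in J2 RNA and 75.4 and 91.4 CPM in INPUT (0.17, SE 0.30, edgeR adjusted p 0.707).

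The change of J2 binding between genotypes, tested itself, was called for 0 of 10 genes in edgeR's quasi-likelihood test, with 0 at an unadjusted p under 0.05 and 0 in DESeq2. Of all 14657 genes 0% were called by edgeR, while 1340 had an unadjusted p under 0.05 and DESeq2 called 76. The smallest p among the 10 belonged to Ythdc1, where KO minus WT was -0.80 (log2, SE 0.42, edgeR adjusted p 0.596), followed by Ythdf3 at 0.70 (SE 0.39, edgeR adjusted p 0.608). A WT call for Ythdc1 beside none in KO is therefore not shown to be a difference between genotypes at this depth and number of livers.

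In the pathway lists J2 RNA was higher than INPUT for 4 of 13 writers in WT and 5 of 13 in KO, and lower for 1 in each. Rbm15, which guides the writer complex, was furthest up (log2 ratio 1.36, SE 0.23 in WT and 2.10, SE 0.24 in KO), and the methyltransferase activator Trmt112 was the one that was lower (-2.22, SE 0.49 and -3.32, SE 0.52). Of 9 reader partners tested 3 were higher and 4 lower in WT, and 4 higher and 2 lower in KO, with the exonuclease Xrn1 furthest up (1.64, SE 0.22 and 2.30, SE 0.23) and the export factor Nxf1 furthest down (-1.35, SE 0.36 and -1.75, SE 0.37). Of 7 other m6A binders 2 were higher and 2 lower in each genotype. In the LIN28 and let-7 list Lin28b was furthest up (2.34, SE 0.24 and 2.33, SE 0.23), with 2 of 8 higher and 1 lower in WT and 3 higher and 2 lower in KO, by edgeR's test.

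**Figure D5:**
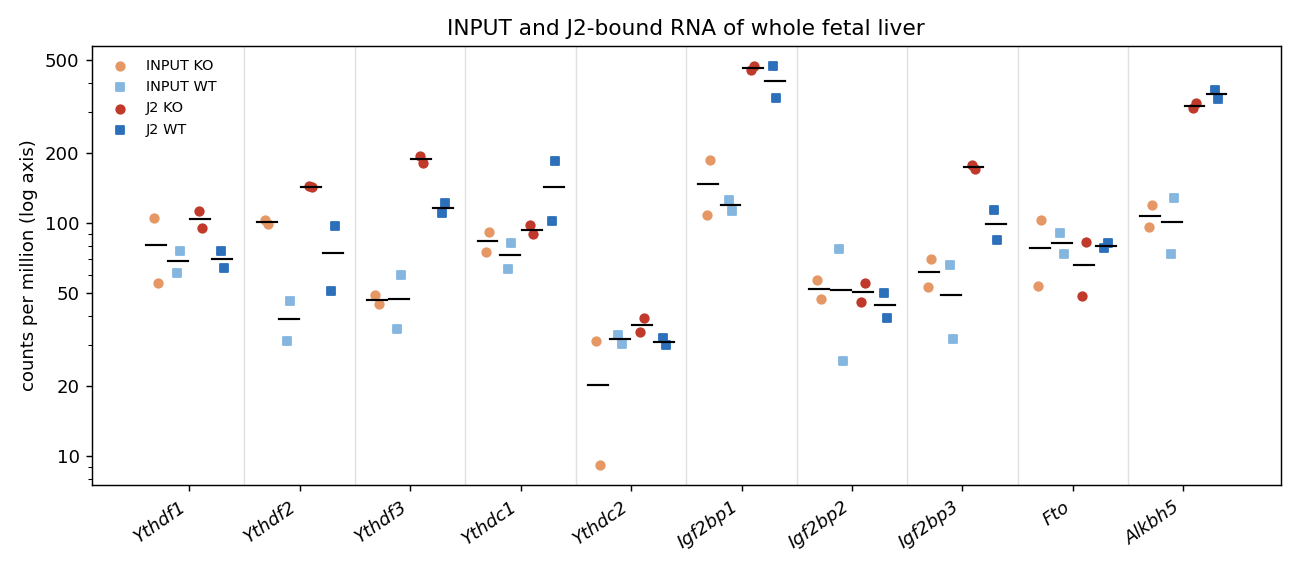
CPM (log axis) of the 10 genes in INPUT and J2-bound RNA of each whole fetal liver, with KO as circles, WT as squares, J2 in the darker shade and a bar at each group's mean (n = 2). J2 stands above INPUT for Igf2bp1, Igf2bp3, Ythdf3 and Alkbh5 in both genotypes, and Ythdf2 INPUT lies at 103 and 98.8 CPM in KO and 31.3 and 46.2 CPM in WT.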

How the data were processed

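The submitters' processing notes name build GRCm38.p5 and the tools Seurat 3.0, STAR 2.5.3a, Picard 2.9.0, edgeR, Bowtie2 2.2.9 and bedtools, without a role for each. The deposited tables hold raw counts per gene (bulk, liver), per window at a transcript start (H3K4me3, labelled 3k) and per cell. The deviations of 2 windows' counts went together at 0.99 for starts under 500 bp apart, fell steadily with distance and were at 0.11 to 0.17 beyond 6000 bp, so a window was taken to reach 3 kb to either side. Strand use and the treatment of reads shared between genes are not given in the sources used here, and doublets were not called here.

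Counts were tested in R 4.3.3 with edgeR 4.0.16 (filterByExpr, TMM, quasi-likelihood F test, Benjamini-Hochberg over all genes tested, called at an adjusted p under 0.05), with DESeq2 1.42.0 as an alternative. CPM use TMM-scaled library sizes, except within marker classes, where the total count of the class is used. For H3K4me3 the window with the highest mean of a gene's distinct windows (123052 of 130983 deposited) was used. The 8 liver libraries were fitted with 4 group means. Cells were summed per library after leaving out those with fewer than 500 counts or with 20% or more of mitochondrial counts. The alternatives are other size factors, no filter, leaving out each library, replicate blocks, marked or summed windows, a sex term (in bulk the Y-linked CPM, added later), thinning to 1000 counts and at least 3 markers. INPUT and J2 of the same number share a liver, per the labels' protocols. Their deviations correlated at 0.012 in KO and 0.13 in WT.

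The 10 genes and the pathway and marker lists were chosen with earlier results of these data known. All 10 genes are named, and of each list the called gene furthest from 0 in each direction. The within-library ratios were chosen after values were seen. Simulated counts with the same spread for every gene were fitted for the bulk and INPUT libraries only. The H3K4me3, single-cell, class and J2 fits were not tested in this way.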

Additional observations from a re-analysis of the deposited data

How the results depend on the processing

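With the replicate number as a replicate block, 8 of the 10 genes were called in bulk RNA (48.7% of all genes) and 9 in H3K4me3 (20842 genes, or 40.8%, in place of 4024). In single cells (0) and INPUT (0) that block gave the reported counts. Same-numbered samples are not stated to share an animal or day, and their deviations correlated at 0.23, 0.096 and 0.044 in bulk, where not every sample correlated best with its own number, and at 0.30 in H3K4me3, 0.26 in single cells and -0.013 in INPUT. The number was therefore not taken to pair samples, which 2 pairs cannot settle for H3K4me3 and single cells. The animal block of INPUT and J2 added Ythdf2 in WT (6 of 10, beside 23.9% of all genes) and changed no other call. Other counts of the 10 genes that moved were 2 in bulk with the Y-linked level as a term (9.49% of all genes) and 1 in single cells with DESeq2 (2.32%). In H3K4me3 the count was 1 with library size alone (9.04%), with marked windows (4.16%) and with summed windows (13.4%). In INPUT it was 1 with DESeq2 (5.64%), library size alone (2.24%), no filter (3.17%) or a sex term (1.59%). Leaving out each library gave 5 to 9 in bulk, beside 31.4 to 45.3% of all genes. It gave 0 to 1 in the stem, granulocyte and monocyte class, beside 6.51 to 11.2%, 3.2 to 6.13% and 6.74 to 10.4%. Calls also moved in H3K4me3, INPUT, J2 in WT and KO in the monocyte class, where this left 1 sample in a group.

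Signs changed, without a call except where stated, for Igf2bp3 in bulk with library size alone (-0.028). In H3K4me3 marked windows gave -0.048 for Ythdf1, -0.28 for Ythdf2 (called), -0.042 for Ythdf3, -0.057 for Ythdc1, -0.020 for Ythdc2 and -0.0026 for Alkbh5, and library size alone gave -0.22 for Ythdf2. Without each library in turn Ythdf2 ran from -0.10 to 0.19 there. In single cells the same ranges were -0.19 to 0.45 for Igf2bp2, -0.053 to 0.27 for Igf2bp3 and -0.27 to 0.13 for Fto, and thinning gave -0.13 for Igf2bp3 and 0.035 for Fto. Igf2bp3 ran from -0.098 to 0.95 in INPUT and was at -0.20 in the thinned granulocyte class. For KO within the stem class Ythdf2 ran from -0.16 to 0.48 and Ythdc1 from -0.31 to 0.16, and thinning gave -0.034 for Ythdf1 within the granulocyte class. Over all 10 genes and alternatives, 108 of 1041 values changed sign, 107 of them with no call on either side. The causes were not tested.

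Counts over all genes moved by more than 1.5 times as follows. Bulk had 1367 with the Y-linked level as a term. H3K4me3 had 802 with DESeq2, 664 with marked windows, 6861 with summed windows and 1080 to 3858 without a library. Single cells had 310 with DESeq2, 11 with no filter, 117 with the block and 24 when thinned, and 0 without any one library. INPUT had 826 with DESeq2, 329 with library size alone, 798 with no filter, 25 with the INPUT libraries alone, 20 with the block and 29 to 451 without a library. The J2 interaction had 76 with DESeq2, 3 with library size alone, 103 with no filter, 10 with the animal block and 0 to 9 without a library. J2 over INPUT fell to 1855 in WT and 2744 in KO without a library. Without a library the KO counts within classes ran from 22 to 51 (stem, 13 reported), 20 to 294 (granulocyte, 45) and 27 to 344 (monocyte, 234), and the class counts from 603 to 1095 (stem, 1131), 340 to 677 (granulocyte, 696) and 632 to 977 (monocyte, 1066). With at least 3 markers, 153 genes were called in the monocyte class (KO), and all 3 readers kept their calls. Thinning gave 234 (granulocyte class) and 6 (KO within it). The stem class with 3 markers, and the thinned stem and monocyte classes, gave no value because a library had under 50 cells. With 2 samples a group, the p-values rest on few animals and on an estimate of spread shared across genes. Ythdc2 rests on 43 to 118 counts in a single-cell library.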

Other observations

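For each of the 10 genes, the gene with the most similar pattern was taken as the one with the highest Pearson correlation of log2 CPM over the 14 bulk and liver libraries, each table centred on the gene's own mean, among 12313 genes. It was Ppm1d for Ythdf1 (r = 0.96), Dnajc25 for Ythdf2 (0.96), Ltn1 for Ythdf3 (0.99), Noct for Ythdc1 (0.93), Xylt1 for Ythdc2 (0.93), Atm for Igf2bp1 (0.99), Ghdc for Igf2bp2 (0.94), Zdhhc20 for Igf2bp3 (0.99), 4931428F04Rik for Fto (0.90) and Gabpa for Alkbh5 (0.99). The libraries share genotype, J2 against INPUT and depth, and each gene is the highest of many, so these values are descriptions.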
